A study of Mus musculus with 24 samples.

Results

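Regions of histone H3 acetylated at lysine 27 (H3K27ac) were compared between livers in which a YAP transgene had been switched on (tet-YAP) and wild-type livers. The members were all regions of the 2 deposited broad lists, 20347 in tet-YAP and 17821 in wild-type, which made 38168 of the 665214 regions and peaks in the 23 lists of the series. The tet-YAP animals were R26-rtTA;tet-YAP and the wild-type animals R26-rtTA;WT, so both carried the doxycycline-dependent transactivator at the Rosa26 locus, and induction lasted 2 days. Per the study's methods the tet-YAP allele was a Col1A1-YAP transgene coding for the S127A form, in which a serine phosphorylated by the Hippo kinases is replaced, and doxycycline was given in the food. The tet-Myc and tet-Myc/YAP livers, set beside them below, carried an inducible Myc transgene alone or with the YAP transgene. The Rosa26 locus is active in most cell types, so the transactivator is not restricted to hepatocytes by its promoter, and the cells that expressed the transgene were not measured. Each genotype had 1 H3K27ac library (antibody Abcam ab4729) from whole liver, and the sources used here do not say whether animals were pooled. The hepatic identity of the tissue could not be checked against marker genes, because no annotation of the files' build (mm9) was used and regions are therefore given by position alone.

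H3K27ac marks the histones around active promoters and active enhancers and is written mainly by the acetyltransferases p300 and CBP. H3K4me3 marks promoters, whereas H3K4me1 without H3K4me3 is typical of enhancers and of the flanks of promoters. YAP has no DNA-binding domain. It is kept out of the nucleus by Hippo signalling and, when nuclear, reaches chromatin mostly through the TEAD factors, where it recruits coactivators. In the liver, Hippo signalling and YAP are known for their control of organ size and of hepatocyte identity.

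With 1 library per genotype no test between genotypes was possible, so the comparison is given as counts and shares, and the Wilson 95% intervals in brackets cover counting only. They leave out the variation between animals, libraries and calling runs. The sources used here give no depth for the H3K27ac libraries, and the header line of the wild-type list named another processing run than those of the 3 transgenic lists. Library, calling run and genotype cannot be told apart as sources of list length, and the alternatives with both lists cut to 17821 regions by the deposited score are given where they matter. The wild-type list already had 17821 regions, so the cut dropped low-scoring tet-YAP regions alone. It left tet-YAP with less covered length than wild-type. In whole liver, fewer cells of a type and less of the mark per cell cannot be told apart.

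Most of the acetylated genome was the same in both livers. The lists covered 231.2 Mb in tet-YAP and 231.4 Mb in wild-type, and 191.5 Mb lay in both, which was 82.8% of the tet-YAP length and 82.7% of the wild-type length. The same length was divided differently. Regions had a median width of 7294 bp in tet-YAP (quartiles 4030 and 13690 bp) and 8148 bp in wild-type (4434 and 15560 bp), and those over 20 kb numbered 2858 (14.0%) in tet-YAP and 3136 (17.6%) in wild-type. Tet-YAP thus had more and shorter regions over nearly the same length.

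Of the tet-YAP regions, 17272 overlapped a wild-type region by at least 1 bp (kept) and 3075 did not (gained), a share of 15.1% [14.6 to 15.6]. Of the wild-type regions, 16424 were kept and 1397 had no tet-YAP counterpart (lost), a share of 7.84% [7.45 to 8.24]. Which of these shares was the larger differed between the full lists and lists of equal length. With both lists cut to 17821 regions the gained share was 9.84% and the lost share 13.0%, so the order of the 2 shares was turned round. As the cut dropped tet-YAP regions alone, it could not lower the lost share. Gained regions held 16.8 Mb, or 42.3% of the length marked in tet-YAP alone, and lost regions 8.90 Mb, or 22.2% of the length marked in wild-type alone. The remaining length of 22.9 Mb in tet-YAP alone and 31.1 Mb in wild-type alone lay in kept regions, at their edges or in the gaps of split and merged regions.

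**Figure D1:**
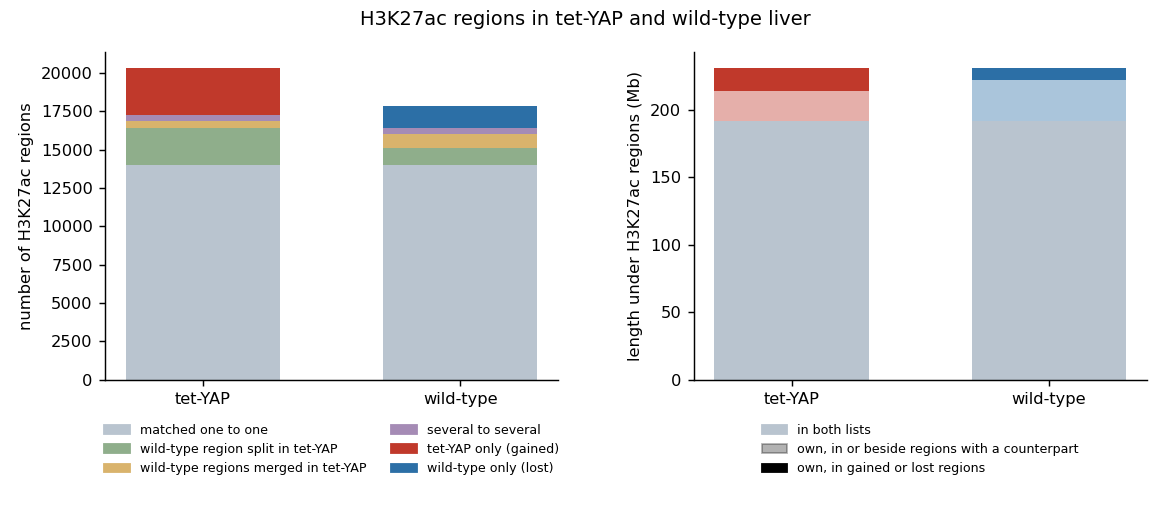
H3K27ac regions of tet-YAP and wild-type liver, by number (left, stacked by how each region was matched) and by length in Mb (right, stacked by whether the length was in both lists). Of 20347 tet-YAP and 17821 wild-type regions, 13988 were matched one to one, and 191.5 Mb of about 231 Mb was shared.

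Kept regions were mostly matched one to one, with 13988 such pairs. A further 1128 wild-type regions were split into 2418 tet-YAP regions, while 440 tet-YAP regions had been formed from 902 wild-type regions, and 189 groups joined several regions of both lists. Splits outnumbered mergers, and with lists cut to equal length there were still 921 splits and 451 mergers. The tet-YAP pieces of a split region were separated by gaps with a median of 1998.5 bp, and the gaps bridged in a merged region had a median of 2640 bp, so both were local breaks within a longer acetylated stretch. Of the split regions, 991 fell into 2 pieces and 137 into 3 or more.

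The most fragmented wild-type region lay at chr18:38521173-38608805 (87633 bp) and corresponded to 5 tet-YAP regions of 6700 to 22183 bp. A wild-type region at chr19:4754486-4823928 (69443 bp) was also in 5 pieces, and a region at chr4:102155819-102283546 (127728 bp) was in 4. The last of these held a YAP peak at chr4:102183583-102183813. The converse was seen at chr9:107442410-107582717, a tet-YAP region of 140308 bp formed from 4 wild-type regions of 16692 to 43893 bp, which held 19 TEAD peaks, 23 Myc peaks and 38 RNA polymerase II (RNAPII) peaks of tet-YAP liver but no YAP peak. Tet-YAP regions at chr5:140570239-140691210 (120972 bp) and chr4:141459295-141518989 (59695 bp) were likewise each formed from 4 wild-type regions. These were long stretches with many bound sites, not isolated elements.

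Gained and lost regions were short and weak. Gained regions had a median width of 4449 bp, against 8107 bp for kept tet-YAP regions. Lost regions had a median of 5251 bp, against 8587 bp for kept wild-type regions. In the deposited lists a region is divided into blocks of stronger signal, and 74.8% of gained and 76.4% of lost regions held a single block. By deposited score, 74.9% of gained regions lay in the lowest 25% of the tet-YAP list and 79.7% of lost regions in the lowest 25% of the wild-type list, and only 89 gained and 22 lost regions lay above their list's median. Most gained and lost regions were thus among the weakest of their own list.

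Most gained regions lay more than 5 kb from any wild-type region. The nearest wild-type region was at a median of 21.8 kb, with 13.9% of gained regions within 5 kb and 29.9% beyond 50 kb. For lost regions the nearest tet-YAP region was at a median of 19.5 kb, with 16.4% within 5 kb and 24.4% beyond 50 kb. Whole gaps between neighbouring regions of the same list had a median of 24.7 kb in tet-YAP and 28.1 kb in wild-type. These gaps are another measure than the distance to the nearest region and give no expected value for it.

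The widest gained region lay at chr1:16761863-16791493 (29631 bp in 7 blocks), 80.4 kb from any wild-type region. It held 2 TEAD peaks of tet-YAP liver and lay on wild-type H3K4me1 without H3K4me3. A gained region at chr11:104465704-104493554 (27851 bp) instead held H3K4me3 in both livers, and those at chr6:137082941-137109613 (26673 bp) and chr15:73437969-73464218 (26250 bp) held H3K4me3 in neither. Tet-Myc liver also had an H3K27ac region at those on chromosomes 11, 6 and 15, but not at that on chromosome 1. The 3 gained regions of highest score lay at chr12:36097443-36105929, chr2:90947151-90953670 and chr10:79055343-79063669, and each held TEAD and RNAPII peaks of tet-YAP liver without H3K4me3. Those on chromosomes 2 and 10 also had H3K27ac in tet-Myc liver, and that on chromosome 12 did not. None of these 3 had an RNAPII peak in wild-type liver. All 3 thus lay outside promoter-like chromatin, with polymerase listed in tet-YAP liver alone. Over all tet-YAP RNAPII peaks, however, 47.1% had no wild-type counterpart. The tet-YAP RNAPII library was also the deeper, at 37.7 M tags against 20.9 M, and the part of depth in this was not tested.

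Among lost regions, the widest lay at chr5:136971742-137016597 (44856 bp), and its nearest tet-YAP region was 1.879 kb away. Those at chr16:94843469-94874386 (30918 bp), chr14:75299062-75328392 (29331 bp), chr9:58451914-58478699 (26786 bp) and chr9:56165795-56189311 (23517 bp) followed. All 5 lay on wild-type H3K4me1 without H3K4me3. Tet-Myc liver had an H3K27ac region at all of them but chr9:58451914-58478699, which held a YAP peak of 12.75-fold enrichment. The lost regions of highest score lay at chr7:38977716-38987602, with 2 wild-type H3K4me3 regions, wild-type H3K4me1 and 2 wild-type RNAPII peaks, and at chr18:9498295-9509964 and chr3:10038366-10044982, on H3K4me1 alone.

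The chromatin that gained and lost regions occupied in wild-type liver differed. Wild-type H3K4me3 was present in 36.8% [35.1 to 38.5] of gained regions and 15.6% [13.8 to 17.6] of lost regions. Wild-type H3K4me1 was present in 35.7% [34.1 to 37.5] of gained regions and 72.9% [70.5 to 75.1] of lost regions. Kept tet-YAP regions had both marks more often, at 69.6% for H3K4me3 and 87.0% for H3K4me1. Lost regions were thus mostly enhancer-like by these marks, and gained regions were not of one kind. By definition, however, lost regions had H3K27ac in wild-type liver and gained regions had none, and the marks came from that same liver. The series had no H3K4me1 list of tet-YAP liver. The part of this definition in the contrast was not tested.

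Split by both marks, 892 lost regions (63.9%) had H3K4me1 alone, 287 (20.5%) neither mark, 126 (9.02%) both and 92 (6.59%) H3K4me3 alone. Of the gained regions, 1130 (36.7%) had neither wild-type mark, 846 (27.5%) H3K4me3 alone, 813 (26.4%) H3K4me1 alone and 286 (9.30%) both. A gained region with H3K4me3 alone is a promoter-like site that carried the promoter mark in wild-type liver but no acetylated region there. The share gained was highest where wild-type liver had neither mark, at 57.0% [54.8 to 59.1] of 1983 tet-YAP regions. It was 37.8% [35.8 to 39.8] of the 2241 with H3K4me3 alone, 15.6% [14.7 to 16.6] of the 5203 with H3K4me1 alone and 2.62% [2.34 to 2.94] of the 10920 with both. Of wild-type regions, 27.8% [25.1 to 30.6] of the 1034 with neither mark were lost, 18.3% [17.2 to 19.4] of the 4873 with H3K4me1 alone and 6.34% [5.20 to 7.71] of the 1451 with H3K4me3 alone. The contrast in marks between gained and lost regions was also present after weighting by width class. The class of 24 kb or more, with 6 gained and 4 lost regions, was left out of this weighting. With shares weighted to the widths of kept regions, H3K4me3 was in 32.3% of gained and 14.4% of lost regions, and H3K4me1 in 37.0% of gained and 75.7% of lost regions.

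H3K4me3 was listed in tet-YAP liver more often at gained than at lost regions. Of the 1132 gained regions with wild-type H3K4me3, 1008 (89.0% [87.1 to 90.7]) also had H3K4me3 in tet-YAP liver, as had 90.1% of the kept ones. Of the 218 lost regions with wild-type H3K4me3 only 94 (43.1% [36.7 to 49.8]) had it in tet-YAP liver. Over all regions of the mark, 2.67% of tet-YAP H3K4me3 regions had no wild-type H3K4me3 region and 17.7% of wild-type ones had no tet-YAP region. Of the 428 H3K4me3 regions present in tet-YAP alone, 40 (9.35%) lay in H3K27ac of tet-YAP alone and 4 (0.935%) in H3K27ac of wild-type alone, a split near that of the 1052 (6.75%) and 129 (0.828%) of the 15586 tet-YAP H3K4me3 regions that were also in wild-type. Of the 3335 wild-type H3K4me3 regions without a tet-YAP counterpart, 138 (4.14%) lay in H3K27ac of tet-YAP alone and 159 (4.77%) in that of wild-type alone, against 1193 (6.33%) and 287 (1.52%) of all 18852 wild-type H3K4me3 regions.

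**Figure D2:**
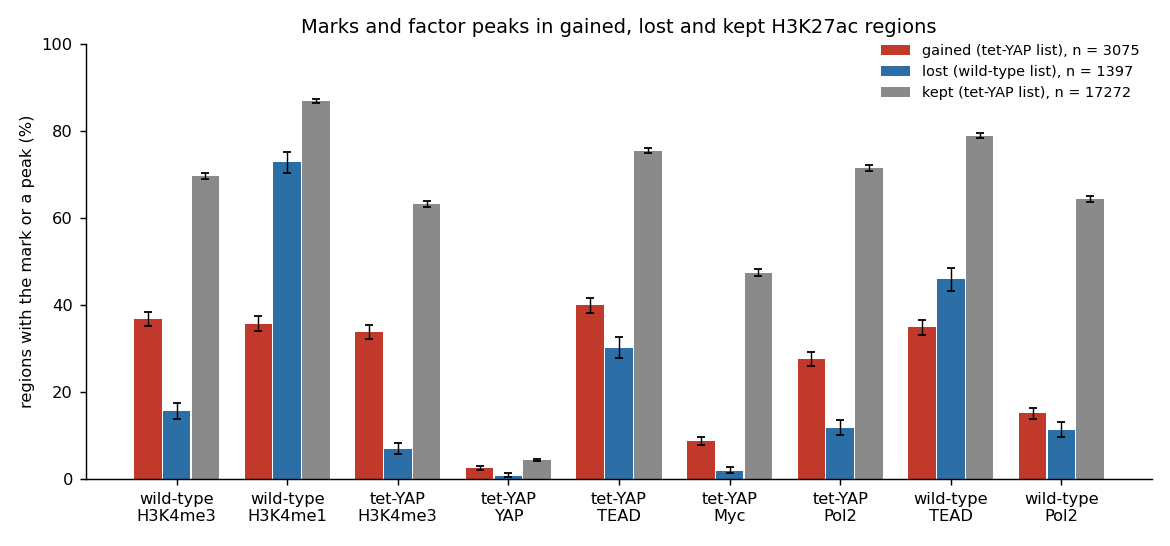
Share of gained, lost and kept H3K27ac regions (%) that overlapped a region of each mark or a peak of each factor, with Wilson 95% intervals as error bars. Lost regions stand out for wild-type H3K4me1 (72.9%), and kept regions exceed both other classes in every column.

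Factor peaks of tet-YAP liver were less frequent in gained than in kept regions, and in lost regions less frequent again. TEAD was present in 40.0% [38.2 to 41.7] of gained, 30.1% [27.8 to 32.6] of lost and 75.5% of kept regions. Myc was present in 8.75% of gained, 2.00% of lost and 47.5% of kept regions. RNAPII was present in 27.7% of gained, 11.8% of lost and 71.5% of kept regions. None of the 4 factors was found in 42.8% of gained, 61.7% of lost and 10.9% of kept regions. Over all peaks, 82.2% of tet-YAP Myc peaks and 47.1% of tet-YAP RNAPII peaks lacked a wild-type counterpart, and 29.8% and 15.5% of the wild-type Myc and RNAPII peaks had none in tet-YAP. The Myc lists were unlike, with a median peak width of 530 bp and an estimated fragment of 327 bp in tet-YAP, against 81 bp and 51 bp in wild-type, and the part of this in the Myc shares was not tested. The RNAPII libraries differed in depth, at 37.7 M tags in tet-YAP and 20.9 M in wild-type, and the part of depth in the RNAPII shares was not tested.

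RNAPII was listed in tet-YAP alone at 418 gained regions (13.6%) and in wild-type alone at 33 (1.07%). At lost regions the numbers were 53 (3.79%) in tet-YAP alone and 47 (3.36%) in wild-type alone, and at kept regions 1620 (9.38%) and 402 (2.33%). The balance of RNAPII thus leaned to tet-YAP at gained and kept regions but not at lost regions.

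TEAD was the factor that could be followed best between the livers, with 32.4 M tags in tet-YAP and 33.1 M in wild-type. Of the tet-YAP TEAD peaks 23.6% had no wild-type TEAD peak, and of the wild-type TEAD peaks 27% had no tet-YAP TEAD peak. Wild-type TEAD was present in 34.9% of gained and 46.0% of lost regions, the opposite order to tet-YAP TEAD. Where a region held wild-type TEAD, tet-YAP liver also had a TEAD peak there in 80.4% [77.9 to 82.6] of 1074 gained regions, 54.4% [50.5 to 58.2] of 642 lost regions and 88.6% of kept regions. TEAD of tet-YAP alone was found in 366 gained regions (11.9%) and 72 lost regions (5.15%), and TEAD of wild-type alone in 211 gained (6.86%) and 293 lost regions (21.0%). TEAD and H3K27ac were thus listed in the same liver more often than in opposite livers.

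The view from the peaks gave the same direction. Of the 7651 TEAD peaks of tet-YAP without a wild-type counterpart, 603 (7.88% [7.30 to 8.51]) lay in H3K27ac of tet-YAP alone and 173 (2.26% [1.95 to 2.62]) in H3K27ac of wild-type alone. Of the 9033 TEAD peaks of wild-type without a tet-YAP counterpart, 313 (3.47% [3.11 to 3.86]) lay in H3K27ac of tet-YAP alone and 531 (5.88% [5.41 to 6.38]) in that of wild-type alone. Taking all 32486 tet-YAP TEAD peaks, 5.05% lay in H3K27ac of tet-YAP alone and 2.14% in that of wild-type alone, but with lists cut to equal length these were 3.54% and 3.89%. The lean of all TEAD peaks to tet-YAP was thus not found at equal list length, and the part of list length in it was not tested. Myc peaks of tet-YAP lay almost entirely within H3K27ac of both livers (94.6%), with 2.49% in tet-YAP alone and 0.832% in wild-type alone. For RNAPII peaks these were 60.3% in both, 4.33% in tet-YAP alone and 3.65% in wild-type alone. With lists cut to equal length, 1.87% of Myc peaks lay in H3K27ac of tet-YAP alone and 1.41% in that of wild-type alone. For RNAPII the order was turned round, at 3.57% in tet-YAP alone and 4.55% in wild-type alone.

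YAP peaks were few, with 1328 in tet-YAP liver, and 913 of them (68.8%) lay in H3K27ac of both livers. A further 107 (8.06% [6.71 to 9.64]) lay in H3K27ac of tet-YAP alone, 24 (1.81% [1.22 to 2.68]) in that of wild-type alone and 284 (21.4%) in neither. The lean to tet-YAP was kept with lists of equal length, at 6.25% in tet-YAP alone and 2.48% in wild-type alone. In wild-type H3K4me3 regions it was small, since 568 of 605 YAP peaks there (93.9%) had H3K27ac in both livers. Outside H3K4me3, 92 of 723 YAP peaks (12.7% [10.5 to 15.4]) lay in H3K27ac of tet-YAP alone and 22 (3.04% [2.02 to 4.56]) in that of wild-type alone. YAP peaks in H3K27ac of tet-YAP and not of wild-type thus lay mainly outside wild-type H3K4me3. Of the 575 with TEAD outside it, 82 summits lay in H3K27ac of tet-YAP and not of wild-type. Only 11 of these 82 were in H3K27ac of tet-YAP alone among all 4 livers. The series had no YAP list of wild-type liver, so all these sites were chosen on a tet-YAP library. With the lists uncut, TEAD peaks listed in a single liver also lay more often in H3K27ac of that liver alone. The part of this choice of sites in the lean of YAP peaks was not tested. The YAP peaks were narrow (median 98 bp, with a fragment size of 56 bp estimated by the peak caller, against 294 bp for TEAD), so their number and position are less certain than those of the TEAD peaks.

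By region, YAP was present in 79 gained regions (2.57% [2.07 to 3.19]), 11 lost regions (0.787% [0.440 to 1.40]) and 763 kept regions (4.42%). Gained regions were shorter, and per Mb they held 5.05 YAP peaks, against 1.57 in lost and 4.36 in kept tet-YAP regions. For TEAD the densities were 82.2 per Mb in gained, 50.5 in lost and 120.8 in kept regions. Per length, therefore, YAP was about as dense in gained as in kept regions whereas TEAD, Myc and RNAPII were sparser. This holds for all YAP peaks, weak ones included. At a −log10 q of at least 10, YAP was in 0.390% of gained and 0.816% of kept regions, and the density of these peaks was not computed.

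The gained regions of highest score with a YAP peak were mostly at strong TEAD sites. The first lay at chr15:62330636-62339550 (8915 bp), 145.8 kb from any wild-type region, with a YAP peak at chr15:62332594-62332810 and a TEAD peak of 23.3-fold enrichment over the control, and without either wild-type H3K4 mark. That at chr5:33594155-33601238 lay on wild-type H3K4me1 and held TEAD of 27.1-fold enrichment. The region at chr8:97005807-97011794 lay on H3K4me3 of both livers and held the strongest pair of these 5 gained regions, with YAP at 31.8-fold and TEAD at 42.6-fold enrichment. Those at chr11:117427428-117434110 and chrX:70709606-70736753 held TEAD of 19.5-fold and 19.1-fold enrichment. The last of these was also among the 5 widest gained regions (27148 bp in 8 blocks). In all 5 regions wild-type liver had a TEAD peak as well, so TEAD had been listed there without an H3K27ac region. Tet-Myc liver, which had no YAP transgene, also had an H3K27ac region at those on chromosomes 5, 8, 11 and X, but not at that on 15. Tet-Myc/YAP liver had one at all 5. Apart from chromosome 8, the YAP peaks were weaker, at 7-fold on chromosome 15, 6-fold on 5, 10.6-fold on 11 and 13.65-fold on X. Their −log10 q values were 3.14, 1.78, 1.78 and 5.52, against 20.83 on chromosome 8. The 107 YAP peaks in H3K27ac of tet-YAP alone had a median of 14.58-fold and a median −log10 q of 5.51. In the 11 lost regions with YAP, the enrichment of the YAP peak taken per region ranged from 11.93-fold to 30.48-fold. Its −log10 q ranged from 2.58 to 19.42, so strong YAP peaks were not confined to gained regions.

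One-to-one pairs let width be compared region by region. Their median width was 7354 bp in tet-YAP and 7563 bp in wild-type, and the median log2 ratio of tet-YAP over wild-type was -0.02 (quartiles -0.29 and 0.22). In 1385 pairs (9.90%) the tet-YAP region was at least 1.5-fold wider and in 1903 (13.6%) at least 1.5-fold narrower. Both edges lay further out in tet-YAP in 3678 pairs (26.3%) and further in in 4058 (29.0%), and an edge differed by a median of 610 bp. The median pair was therefore nearly the same in both livers.

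Pairs with a YAP peak in their shared stretch differed from the rest. The YAP peaks were again those of tet-YAP liver, and the part of this choice in the difference was not tested. In the 551 pairs with YAP the median width was 16237 bp in tet-YAP and 14648 bp in wild-type. The tet-YAP region was the wider of the pair in 326 of them (59.2%), against 47.3% of the 13437 pairs without YAP. It was at least 1.5-fold wider in 62 pairs with YAP (11.3% [8.88 to 14.2]) and at least 1.5-fold narrower in 28 (5.08% [3.54 to 7.25]), against 9.85% wider and 14.0% narrower without YAP. As regions with YAP were longer, pairs were also compared within classes of their geometric mean width. In pairs of 6 to 12 kb, 17.8% [12.2 to 25.3] of 129 with YAP were wider, against 11.2% [10.3 to 12.2] of 4294 without, and 7.75% [4.26 to 13.7] were narrower, against 15.8% [14.8 to 17.0]. In pairs of 12 to 24 kb, 11.2% of those with YAP were wider, against 7.03% without, and 6.18% were narrower, against 11.3% without. The same order held in the other 3 width classes, although the intervals overlapped in several, and for the 19 pairs with YAP under 3 kb they were very wide.

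**Figure D3:**
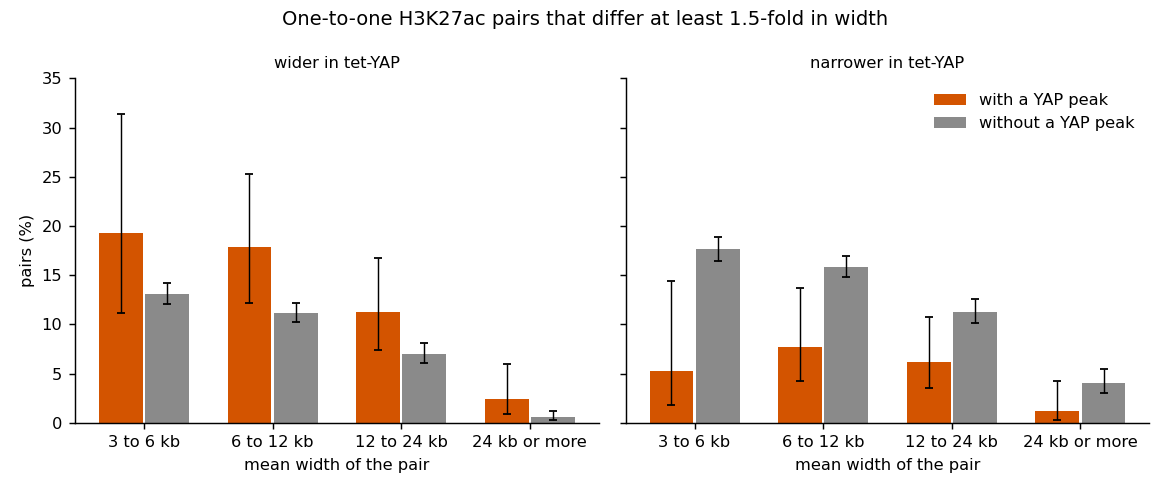
Share of one-to-one pairs (%) in which the tet-YAP region was at least 1.5-fold wider (left) or narrower (right) than the wild-type region, by geometric mean width and by presence of a YAP peak, with Wilson 95% intervals. In each of the 4 classes shown, pairs with YAP were more often wider and less often narrower (in pairs of 6 to 12 kb 17.8% against 11.2% wider), and pairs under 3 kb are left out because only 19 held YAP.

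Narrowed pairs were most frequent where TEAD was in wild-type alone. The 777 pairs with TEAD of tet-YAP alone had a median log2 ratio of 0.03, with 14.8% wider and 11.97% narrower in tet-YAP. The 1293 pairs with TEAD of wild-type alone had a median of -0.09, with 8.74% wider and 20.4% narrower. The 9722 pairs with TEAD in both had 8.83% wider and 12.5% narrower, and the 2196 with TEAD in neither 13.6% wider and 15.3% narrower. The wider share thus did not set pairs with TEAD of one liver apart, since TEAD of tet-YAP alone lay near TEAD in neither and TEAD of wild-type alone near TEAD in both. Pairs without H3K4me1 leaned to tet-YAP, with medians of 0.05 for the 1272 with H3K4me3 alone and 0.08 for the 686 with neither mark. With neither mark, 21.1% of pairs were at least 1.5-fold wider in tet-YAP and 13.1% narrower.

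The most widened pair lay at chr1:91418268-91484280 in tet-YAP (66013 bp), where wild-type had 13853 bp. The tet-YAP region at chr9:48470280-48511951 (41672 bp, against 4516 bp in wild-type) held 25 RNAPII peaks of tet-YAP and 14 of wild-type. The third, at chr19:57162754-57203304 (40551 bp, against 6113 bp), held a YAP peak at chr19:57172787-57172973 and TEAD of 20.7-fold enrichment. The most narrowed pairs lay at chr1:67155291-67199435 (44145 bp, against 123693 bp in wild-type), chr11:106771123-106795909 (24787 bp, against 73971 bp) and chr14:32640175-32647902 (7728 bp, against 47955 bp). The narrowed pair on chromosome 11 also held a YAP peak, at chr11:106789389-106789444, with TEAD of 13.6-fold enrichment.

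Because a region can be cut or joined by the peak caller, the covered length around bound sites was also measured, in windows of 2 kb on each side of a summit (4001 bp). At the 575 YAP summits with TEAD outside wild-type H3K4me3, H3K27ac regions covered a mean of 2653 bp in tet-YAP and 2186 bp in wild-type, a ratio of 1.21. Coverage was greater in tet-YAP at 137 of these sites and smaller at 44, and equal at the other 394. With lists of equal length the difference was 292 bp instead of 467 bp. At the 563 YAP summits with TEAD inside H3K4me3 the means were 3742 bp in tet-YAP and 3657 bp in wild-type, so near the full window in both that a further extension could hardly be seen. Coverage was also greater in tet-YAP at strong distal TEAD sites without YAP, whose values are given further on.

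The other 2 H3K27ac libraries offered a view of these sites that did not rest on the tet-YAP and wild-type lists alone. At the same 575 distal YAP summits tet-YAP regions covered a mean of 2653 bp and tet-Myc/YAP regions 2775 bp, whereas tet-Myc regions covered 2386 bp and wild-type regions 2186 bp. The summit itself lay in an H3K27ac region of tet-YAP liver at 68.9% [65.0 to 72.5] of sites and of tet-Myc/YAP liver at 71.8% [68.0 to 75.3], whereas tet-Myc liver had 62.3% [58.2 to 66.1] and wild-type liver 57.4% [53.3 to 61.4]. Both livers with the YAP transgene were above both livers without it. The summits were chosen on a tet-YAP library, and the part of this choice in the order was not tested. The tet-Myc/YAP list was the shortest in total at 201.4 Mb (tet-YAP 231.2 Mb, tet-Myc 230.6 Mb and wild-type 231.4 Mb), but it had the most regions (21854). With all 4 lists cut to 17821 regions tet-YAP had 64.0% and tet-Myc/YAP 64.2%, whereas tet-Myc had 57.0% and wild-type 57.4%.

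Site by site, 296 of the 575 distal YAP summits (51.5%) lay in H3K27ac of all 4 livers and 124 (21.6%) in none. Those in H3K27ac of both livers with the YAP transgene and neither without it numbered 39 (6.78%), and the reverse pattern was seen at 3 (0.522%). With lists of equal length these were 31 and 6. A further 31 sites had H3K27ac in all 3 transgenic livers but not in wild-type, and for these the transgenes and the wild-type library cannot be told apart.

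The same values were taken at TEAD sites without a YAP peak. At the 9410 distal TEAD summits found in both livers, tet-YAP regions covered a mean of 2726 bp and tet-Myc/YAP regions 2617 bp, whereas tet-Myc regions covered 2706 bp and wild-type regions 2642 bp, with no order by transgene. The pattern of both livers with the YAP transgene and neither without was found at 150 sites (1.59%) and its reverse at 116 (1.23%), and with lists of equal length at 109 and 204. Among the 1865 of these sites with a TEAD enrichment of at least 10-fold in tet-YAP, however, the numbers were 75 (4.02%) and 9 (0.483%), and tet-YAP regions covered 3049 bp and tet-Myc/YAP regions 3063 bp, whereas tet-Myc regions covered 2770 bp and wild-type regions 2715 bp. With lists of equal length the numbers were 58 and 15. Among the 858 sites with at least 10-fold TEAD enrichment in wild-type the numbers were 15 (1.75%) and 12 (1.40%), and the order was turned round with lists of equal length, at 12 and 14. The distinction by transgene was therefore not confined to sites with a called YAP peak. It also held for strong TEAD sites of the tet-YAP liver, which like the YAP summits are sites chosen on a tet-YAP library. It did not hold at equal list length for strong TEAD sites of the wild-type liver.

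**Figure D4:**
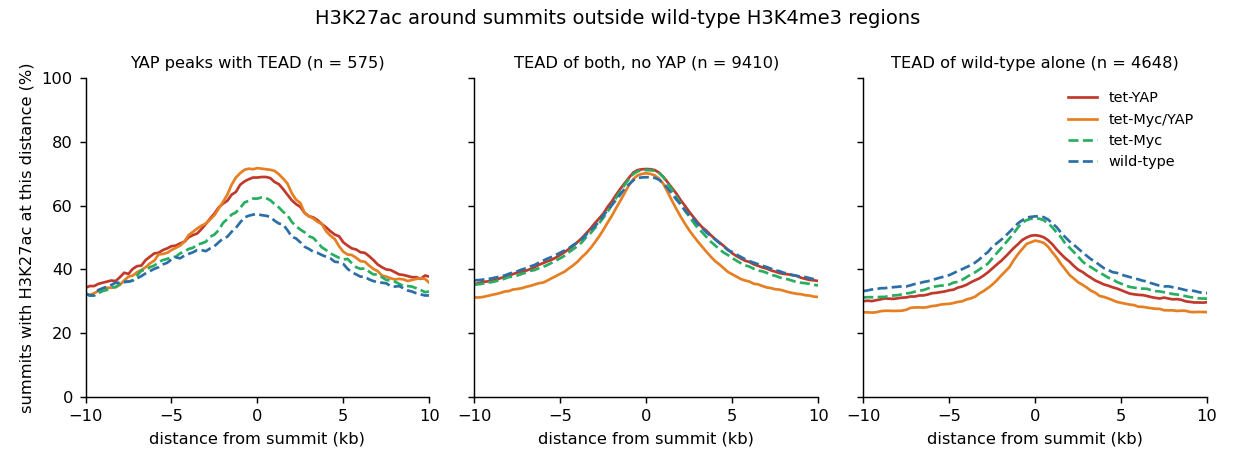
Share of summits (%) with an H3K27ac region at each distance from the summit (kb, window of 10 kb each side), for 3 sets of summits outside wild-type H3K4me3 and for each of the 4 livers. Near YAP summits, which are those of tet-YAP liver, both livers with the YAP transgene (solid lines) lie above both without it (dashed lines). Near TEAD summits of wild-type alone the order is turned round. At the left end of the YAP panel tet-Myc/YAP (32.2%) lies below tet-Myc (32.3%) and wild-type (32.5%).

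TEAD of wild-type alone went with the opposite order. At the 4648 distal TEAD summits of wild-type without a tet-YAP TEAD peak, tet-YAP regions covered a mean of 1899 bp and tet-Myc/YAP regions 1784 bp, whereas tet-Myc regions covered 2101 bp and wild-type regions 2156 bp. H3K27ac was in both livers with the YAP transgene and neither without at 14 sites (0.301%) and the reverse at 113 (2.43%), and with lists of equal length at 9 and 174. At the 4908 distal TEAD summits of tet-YAP alone without YAP, tet-YAP regions covered 2380 bp and tet-Myc/YAP regions 2202 bp, whereas tet-Myc regions covered 2147 bp and wild-type regions 2108 bp. The 2 patterns were found there at 113 (2.30%) and 33 sites (0.672%). With lists of equal length the order by transgene was lost at these sites, with coverages of 2194 bp in tet-YAP, 1921 bp in tet-Myc/YAP, 1994 bp in tet-Myc and 2108 bp in wild-type, and with the patterns at 71 and 68 sites. The tet-Myc/YAP and tet-Myc libraries had no part in choosing these sites.

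**Figure D5:**
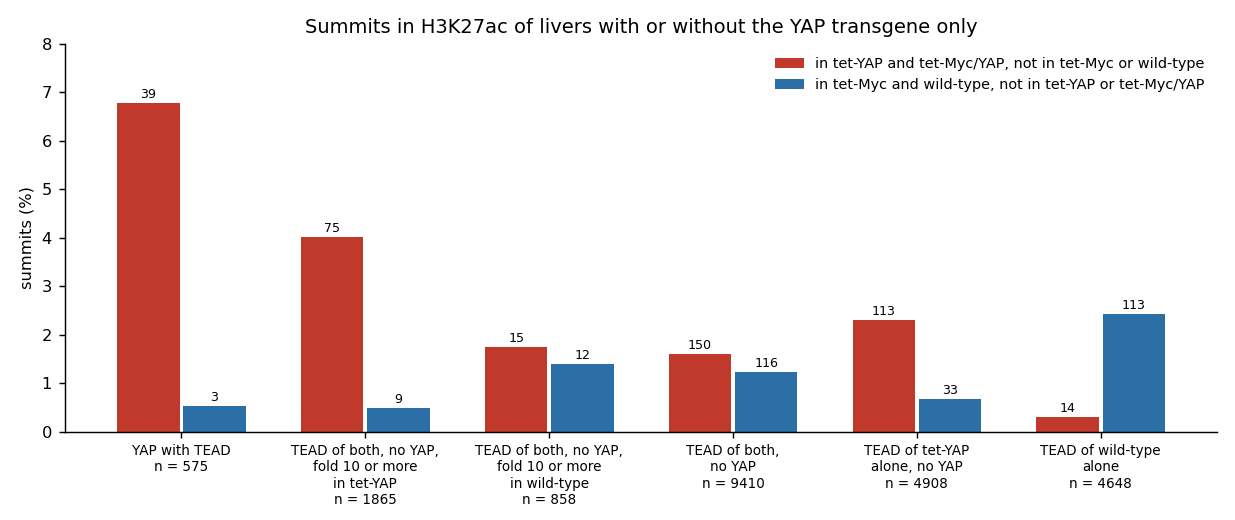
Share of summits (%) outside wild-type H3K4me3 that lay in H3K27ac of both livers with the YAP transgene and neither without it (red) or the reverse (blue), with the number of summits above each bar. YAP summits show 39 against 3, TEAD summits of wild-type alone 14 against 113.

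The stronger blocks inside regions leaned the same way. Of 1328 YAP summits, 609 lay in a block of both livers, 151 in a block of tet-YAP alone and 41 in a block of wild-type alone. For TEAD summits of tet-YAP these were 18413, 2851 and 1406, and for Myc summits 10874, 949 and 196. The lean was thus found for all 3 factors, with the most uneven split for Myc. All 3 sets of summits were chosen on tet-YAP libraries, and the part of this choice in the lean was not tested. There were 51094 blocks covering 74.1 Mb in tet-YAP and 43721 covering 78.6 Mb in wild-type, and the part of block number in the lean was not tested.

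The comparisons of the 3 transgenic livers with wild-type share the wild-type library, so their values are set side by side only. Tet-YAP liver had 3075 gained regions (15.1%) and 1397 lost ones (7.84%). Tet-Myc/YAP liver had 3908 gained (17.9%) and 1873 lost (10.5%), and tet-Myc liver 3442 gained (16.8%) and 1317 lost (7.39%). Gained regions held wild-type H3K4me3 in 36.8% of cases for tet-YAP, 35.6% for tet-Myc/YAP and 35.5% for tet-Myc. Lost regions held H3K4me1 in 72.9% of cases for tet-YAP, 70.4% for tet-Myc/YAP and 63.1% for tet-Myc. The numbers of gained and lost regions and their marks were thus not peculiar to tet-YAP. Wild-type regions were split into several at 1128 places by the tet-YAP list, 1741 by the tet-Myc/YAP list and 1045 by the tet-Myc list.

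Chromosome X stood apart from the autosomes. Of 413 tet-YAP regions on X, 105 were gained (25.4% [21.5 to 29.8]), whereas the share on single autosomes ranged between 11.9% and 16.2%. The lost share on X was 7.52% (24 of 319), within the range of 5.46% to 10.8% on autosomes. For tet-Myc/YAP the gained share on X was 34.8% and for tet-Myc 33.5%, again against the same wild-type library, which had the fewest regions on X. Tet-YAP listed 413 there (2.03% of its regions), tet-Myc/YAP 492 (2.25%), tet-Myc 478 (2.33%) and wild-type 319 (1.79%). The part of the wild-type library in this was not tested. On autosomes alone the gained share was 14.9% and the lost share 7.85%.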

How the data were processed

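Peak lists of ChIP-seq from mouse liver were used, 14 of the 23 lists of the series. The submitters' processing notes name mm9, BWA 0.6.2, SAMtools and MACS2 2.0.9. The broad lists deposited by the authors hold regions with a score of unstated scale, used here for ranks alone, and the widths of stronger blocks (blocks of 1 bp at region ends were dropped). The narrow lists deposited by the authors hold the pileup signal at the summit, the −log10 p and −log10 q, and the ratio to the control (fold enrichment). Tags after filtering, read from the deposited headers, are given in the text. Depth and cutoffs of the broad lists were not given in the sources used here. A sample titled as an input had no group and was not analysed here.

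Samples were grouped by the genotype and antibody in their labels, 1 library each, so no test was made. Regions were matched by an overlap of at least 1 bp with numpy 2.4.6 and pandas 2.3.3 (Python 3.11.15), and bedtools 2.31.1 gave the same 3075 gained and 1397 lost regions. Overlap and matching were tested on simulated data with planted classes. Wilson 95% intervals came from scipy 1.17.1, and figures from matplotlib 3.10.9. The whole comparison and its lists were chosen with earlier results of these data known. Single regions were named by a rule: the 5 widest gained and lost, the 3 of each with the highest score, the 5 gained with YAP of highest score, the 3 merged from or split into most regions, and the 3 most widened and narrowed pairs. Alternatives were other overlaps, equal list lengths, score, width and q thresholds, joined gaps, summits inside regions, width classes and a window of 5 kb. The patterns over all 4 livers, the TEAD threshold of 10-fold and all 4 lists at equal length were added after seeing the data. No genome or annotation of mm9 was used, so no sequence or gene is given.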

Additional observations from a re-analysis of the deposited data

How the results depend on the processing

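No paired analysis was possible because each genotype had 1 H3K27ac library and the labels number no replicates, and for the same reason no library could be left out. The values were recomputed under 14 other settings, 1 of them chosen after seeing the data. Where they moved, the cause was not tested unless the setting itself shows it. The gained and lost shares (15.1% and 7.84%) were 33.1% and 23.6% with an overlap of at least 50% of both regions, 14.1% and 16.2% among the 8910 highest scoring regions of each list, and 9.84% and 13.0% with lists cut to 17821 regions. They kept within their intervals on autosomes alone, for regions of at least 1000 bp and with regions under 3000 bp apart joined. No regions lay under 1000 bp apart (the smallest gaps were 1409 bp in tet-YAP and 1986 bp in wild-type), so that setting could change nothing.

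With lists cut to 17821 regions, H3K4me3 was in 42.5% of gained and 18.9% of lost regions, H3K4me1 in 38.9% of gained, YAP in 3.19% of gained, and TEAD in 45.2% of gained and 36.2% of lost regions. H3K27ac of tet-YAP alone then held 6.25% of YAP and 3.54% of TEAD peaks, and that of wild-type alone 3.89% of TEAD peaks. The covered length at distal YAP summits with TEAD was 292 bp greater in tet-YAP, and the difference of tet-YAP minus wild-type at distal TEAD summits of both livers without YAP changed sign, at -116.8 bp instead of 83.7 bp. At a −log10 q of at least 10, which 193 of the 1328 YAP and 22553 of the 32486 TEAD peaks passed, YAP was in 0.390% of gained and 0.143% of lost regions and TEAD in 31.2% of gained and 19.2% of lost regions, while 5.40% of TEAD peaks lay in H3K27ac of tet-YAP alone and 1.85% in that of wild-type alone. Fewer peaks were counted there, and the order of gained over lost held for both factors. For YAP it rested on few regions, being 0.390% of 3075 gained and 0.143% of 1397 lost regions. Weighted to the widths of kept regions, without classes of under 20 regions, H3K4me3 was in 32.3% and YAP in 3.78% of gained regions, H3K4me1 in 75.7% of lost regions, and TEAD in 42.2% of gained and 32.6% of lost regions. In windows of 5 kb the difference at distal YAP summits was 963.8 bp. Over all connected groups the median log2 width ratio was -0.025 (-0.016 in one-to-one pairs), below the interval of the one-to-one pairs. With the summit required inside the region, the shares of gained and lost regions with each factor stayed within their intervals.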
